A study of Mus musculus with 4 samples.

Results

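Protein-coding promoters that lie outside CpG islands were examined in mouse embryonic stem cells with and without a netrin-1 transgene. They were the gene features that the deposited gene table marks as promoters, as having no CpG island and as belonging to a protein-coding gene, and there were 10589 of them among 55200 gene features. The choice used sequence annotation and no methylation value. The table gives each promoter as a window of 500 bp on both sides of the transcription start, on GRCm38 (mm10), and none of these windows overlapped an island of the deposited island table. The cells were CGR8, an embryonic stem cell line cultured with serum and LIF, the cytokine that holds such cells undifferentiated. All were stably transfected with a ppy-cagg vector carrying puromycin resistance, which was empty in 2 control libraries and carried netrin-1, a secreted guidance protein related to laminins, in 2 netrin-1 libraries. The assay was RRBS (reduced representation bisulfite sequencing), in which MspI cuts DNA at CCGG and short fragments are sequenced after bisulfite treatment. The labels do not say whether the lines were clones or pools, or at which step the replicates parted (transfection, culture or DNA extraction), and p-values then measure only the spread between these libraries, which may be technical.

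Vertebrate promoters fall broadly into those within CpG islands, which mostly stay unmethylated and serve widely expressed genes, and those outside islands, which have few CpGs and often serve genes used in a single tissue. Island-free promoters are commonly methylated in cells that do not use the gene, and CpG methylation is laid down by the enzymes Dnmt3a and Dnmt3b, copied by Dnmt1 and oxidised by the Tet enzymes. Expression was not measured in these libraries, so levels of methylation are not levels of gene activity.

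The letters below show 6 of these promoters, picked because the results turn on them and not as typical of the class. Pou5f1 and Zfp42 are genes of stem cells, and Slc25a48 and Rufy3 have promoters with separate groups and close replicates. Tnp1 is a sperm gene, and Apob is a liver gene with a higher level in netrin-1 cells. Each is the RefSeq window (GRCm38.p6) from 250 bases before to 50 bases after the start, written 5′ to 3′ along the gene, with every CpG in capitals.
Pou5f1: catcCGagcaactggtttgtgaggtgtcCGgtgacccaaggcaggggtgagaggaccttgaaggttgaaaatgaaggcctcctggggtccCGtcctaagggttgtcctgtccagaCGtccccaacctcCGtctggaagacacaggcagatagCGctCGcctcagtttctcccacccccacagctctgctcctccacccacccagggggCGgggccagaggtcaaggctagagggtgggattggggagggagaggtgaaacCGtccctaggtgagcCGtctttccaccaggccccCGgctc
Zfp42: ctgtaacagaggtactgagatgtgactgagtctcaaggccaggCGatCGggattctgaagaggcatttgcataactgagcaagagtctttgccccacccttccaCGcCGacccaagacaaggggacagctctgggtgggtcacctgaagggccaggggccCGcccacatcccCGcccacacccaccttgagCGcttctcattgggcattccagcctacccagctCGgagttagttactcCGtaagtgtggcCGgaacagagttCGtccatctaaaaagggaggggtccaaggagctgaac
Slc25a48: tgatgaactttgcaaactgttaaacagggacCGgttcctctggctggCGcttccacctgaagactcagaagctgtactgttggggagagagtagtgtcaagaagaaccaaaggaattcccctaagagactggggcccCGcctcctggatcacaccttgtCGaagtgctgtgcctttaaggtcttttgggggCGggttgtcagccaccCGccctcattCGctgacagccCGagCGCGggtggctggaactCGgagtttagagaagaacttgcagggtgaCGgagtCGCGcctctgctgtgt
Rufy3: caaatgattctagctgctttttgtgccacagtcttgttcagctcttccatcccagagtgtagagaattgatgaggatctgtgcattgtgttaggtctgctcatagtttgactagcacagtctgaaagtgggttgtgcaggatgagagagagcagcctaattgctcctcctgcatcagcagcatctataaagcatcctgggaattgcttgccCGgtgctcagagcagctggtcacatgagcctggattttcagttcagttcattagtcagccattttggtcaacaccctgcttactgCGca
Tnp1: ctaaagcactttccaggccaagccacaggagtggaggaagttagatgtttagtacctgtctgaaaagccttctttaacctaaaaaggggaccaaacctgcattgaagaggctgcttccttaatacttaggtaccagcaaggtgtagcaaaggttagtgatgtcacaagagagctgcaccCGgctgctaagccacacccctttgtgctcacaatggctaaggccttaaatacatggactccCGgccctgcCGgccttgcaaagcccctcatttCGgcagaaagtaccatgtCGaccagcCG
Apob: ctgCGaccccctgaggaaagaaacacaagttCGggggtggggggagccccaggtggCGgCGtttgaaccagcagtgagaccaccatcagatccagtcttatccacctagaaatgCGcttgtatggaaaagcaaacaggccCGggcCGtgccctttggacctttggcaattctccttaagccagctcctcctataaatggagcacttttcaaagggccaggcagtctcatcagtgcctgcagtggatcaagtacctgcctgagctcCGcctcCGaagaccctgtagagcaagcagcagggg
These windows lie on GRCm38.p6 at chr17:35505782-35506081 on the plus strand for Pou5f1, chr8:43306960-43307259 on the minus strand for Zfp42 and chr13:56438105-56438404 on the plus strand for Slc25a48. The others are at chr5:88583263-88583562 on the plus strand for Rufy3, chr1:73015850-73016149 on the minus strand for Tnp1 and chr12:7977427-7977726 on the plus strand for Apob. They hold 11, 11, 14, 2, 6 and 9 CpGs in the order printed. CCGG, the MspI site, which reads the same on both strands, occurs in each of them and in 52.8% of the 32851 RefSeq promoter windows. A RefSeq window was matched to 6244 of the 10589 promoters, with a median of 3 CpGs, and 33.3% held CCGG. Of the 3043 promoters measured below 1851 were matched, with a median of 8 CpGs and CCGG in 71.6%. The 4100 matched promoters with no call had a median of 2 CpGs, and 14.6% held CCGG. Measured promoters with a matched window were thus richer in CpGs and MspI sites than the class. Promoters without a matched window are not covered by these values.

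RRBS reached a minority of these promoters. Of the 10589, 7065 had no call in any library, 481 had calls but fewer than 10 in at least 1 library, and 3043 (28.7%) had at least 10 calls in every library. All levels below are for these 3043, as methylated calls in percent of all calls. Among 11388 protein-coding promoters with an island, 10902 (95.7%) were measured in this way. The 10589 promoters together held 787144 and 1049742 calls in the control libraries and 888266 and 1365083 in the netrin-1 libraries. The median measured promoter held 157 and 214 calls in control and 175 and 278 in netrin-1 libraries, at 13 to 14 covered positions, against 59 to 64 positions in promoters with an island. Of the 3043, 175 lay in 87 clusters of windows that overlap each other, so they are not all separate regions. The labels name no molecular identifiers, and amplified reads are then not independent molecules, so limits given for groups at 0% cover counting error only.

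Promoters without an island were less methylated in both netrin-1 libraries than in either control. Their mean level was 16.9% and 17.2% in the control libraries and 15.7% and 14.6% in the netrin-1 libraries. The 2 groups did not overlap, with 1.20 points between the lowest control and the highest netrin-1 library. The group means were 17.1% ± 0.245 and 15.2% ± 0.748 (mean and SD, n = 2), a difference of -1.91 percentage points, or -11.2% of the control level. An exact two-sided permutation test over libraries gave p = 0.333, the smallest that 2 libraries against 2 allow, so this test cannot reach 0.05 for any of the means given here. The middle of the distribution differed as well, with a median promoter at 7.40% in control cells and 5.65% in netrin-1 cells.

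**Figure D1:**
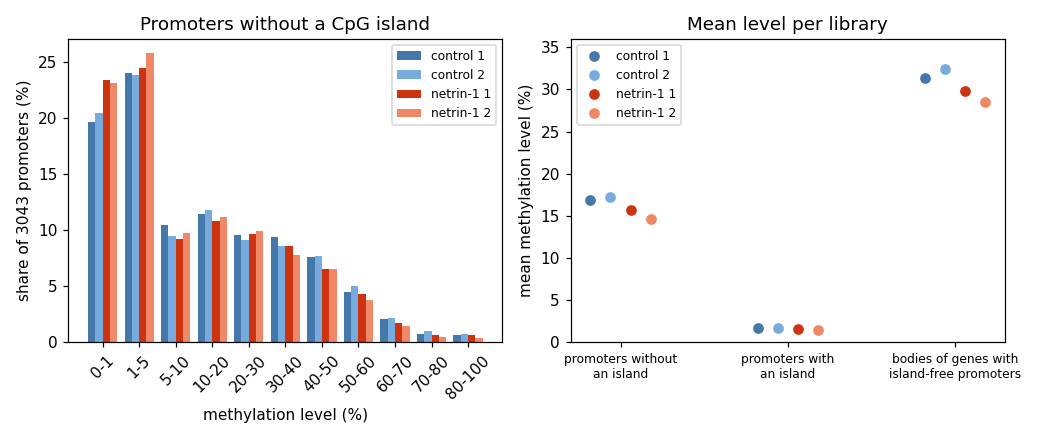
Left, share of the 3043 measured island-free promoters (vertical axis, percent) in each range of methylation level (horizontal axis, percent), with a bar per library. Right, mean methylation level in percent of 3 classes of feature, with a point per library. The netrin-1 points lie below both control points in each class, and island-free promoters lie between promoters with an island and gene bodies.

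The levels were spread widely, from promoters with no methylated call to promoters almost fully methylated. In control libraries 43.7% and 44.4% of the promoters were below 5% methylation, against 47.9% and 48.9% in netrin-1 libraries. At the other end, 7.92% and 8.91% were at or above 50% in control and 7.36% and 5.98% in netrin-1 libraries. The share of strongly methylated promoters was thus lower in each netrin-1 library, by -1.74 points between the means (8.41% ± 0.697 and 6.67% ± 0.976, SD, n = 2, exact permutation p = 0.333). The size of this difference depended on single libraries. It was -1.07 points without netrin-1 replicate 2, -1.30 points without control replicate 2 and -2.48 points without control replicate 1. Among 1782 promoters with at least 100 calls in every library, the most methylated, named after their values were seen, belonged to Sh2d3c, an adaptor protein gene, at 93.3% ± 0.204 and 95.3% ± 1.54, Ifi202b, an interferon-induced gene, at 91.2% ± 4.86 and 83.2% ± 2.31, and Fabp12, a fatty acid binding protein gene, at 81.2% ± 0.994 and 86.8% ± 4.798 (control and netrin-1, SD, n = 2).

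Most single promoters had the lower level in netrin-1 cells, and this share was close to that of gene features at large. The mean was lower in 1891 (62.1%), higher in 1090 (35.8%) and equal in 62, beside 64.0% lower and 35.3% higher over all 34930 gene features with 10 calls in every library. Both netrin-1 libraries lay below both controls in 803 promoters (26.4%) and above them in 304 (9.99%), beside 27.9% and 10.2% of all gene features. The median difference was -0.73 points for these promoters and -0.53 points for all features. These counts therefore do not set the island-free promoters apart from other features.

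The difference between the groups was then set against that of promoters with an island. Those stood at 1.68% ± 0.0577 in control cells and 1.504% ± 0.0418 in netrin-1 cells (mean and SD, n = 2), a difference of -0.177 points. In relative terms the difference was -10.5% of the control level, near the -11.2% of island-free promoters. In points, the gap between the promoter classes was 15.4 in control cells and 13.6 in netrin-1 cells, which is -1.73 points apart, and the groups did not overlap (exact permutation p = 0.333).

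Promoters of equal level were compared next, in classes of mean level over all 4 libraries. The 1382 island-free promoters under 5% stood at 1.98% ± 0.120 in control cells and 1.52% ± 0.0748 in netrin-1 cells (mean and SD, n = 2), a relative difference of -22.9%. The 640 at 5 to 20% were at 12.4% in both control libraries and at 10.1% and 9.25% in the netrin-1 libraries, a difference of -2.75 points or -22.1%. At 20 to 40%, 601 promoters stood at 31.5% ± 0.571 in control cells against 28.0% ± 1.55, or -3.50 points. At 40 to 60%, 359 promoters differed by -2.97 points, which was -5.99% of the control level. In the absence of control replicate 2 these 2 classes differed by -2.76 and -2.55 points. The class at 40 to 60% differed by -1.76 points in the absence of netrin-1 replicate 2. The value at 40 to 60% was -4.56 points without netrin-1 replicate 1. The 50 promoters at 60 to 80% and the 11 above had overlapping groups, with differences of -4.65 and -1.60 points. With single libraries left out the class at 60 to 80% ran from -6.65 to -1.28 points.

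At low levels island-free promoters differed by more points than promoters with an island of the same class. Under 5%, the 10483 promoters with an island differed by -0.112 points, and the gap between the promoter kinds was smaller in both netrin-1 libraries than in both controls, by -0.341 points. At 5 to 20% the 374 promoters with an island stood at 9.44% against 7.70%, and the gap to island-free promoters was smaller in netrin-1 libraries by -0.999 points, again without overlap of the groups (exact permutation p = 0.333 for both). At 20 to 40%, where only 35 promoters with an island were measured, the gap differed by -0.0883 points and the groups overlapped (exact permutation p = 0.667). Within a class the kinds still differed in mean level, since the control mean at 5 to 20% was 12.4% for island-free promoters and 9.44% for the others.

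**Figure D2:**
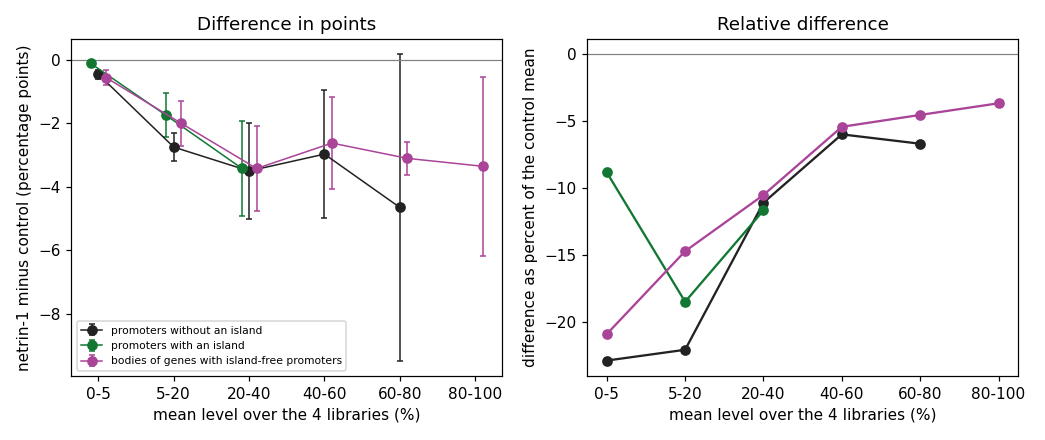
Difference between netrin-1 and control means (left, percentage points, with bars from the lowest to the highest difference between single libraries) and the same as a percent of the control mean (right), by class of mean level over the 4 libraries (horizontal axis, percent). Classes with fewer than 20 features are not drawn; island-free promoters were lower by more than 20% of the control level under 20% methylation and by -5.99% at 40 to 60%.

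Bodies of the same genes, which the table starts where the promoter window ends, were more methylated than the promoters. In the 2520 genes with both parts measured, the promoter mean was 16.1% ± 0.202 in control cells and 14.3% ± 0.771 in netrin-1 cells, and the body mean was 29.9% ± 0.564 and 27.5% ± 1.04 (mean and SD, n = 2). The promoter lay below the body in 1896 genes (75.2%). The body differed by -2.39 points and the promoter by -1.82 points. The distance from promoter to body was 0.572 points smaller in netrin-1 cells (exact permutation p = 0.333). The value was only 0.283 points without control replicate 2 and 0.362 points without netrin-1 replicate 2. It was 1.04 points when promoters and bodies were weighted by calls.

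Promoter and body of a gene did not always go the same way. Both were lower in netrin-1 cells in 1162 genes, both were higher in 279, the signs were opposite in 1026, and the rest had an equal mean in either part. Taken alone, the promoter was lower in 1558 of these genes (61.8%) and the body in 1832 (72.7%). Unrelated parts with these shares would also differ in sign in many genes, and a departure from that was not tested. Spearman's rho across the 2520 genes was 0.134 between the levels of promoter and body and 0.102 between their differences, as a description only, since genes are not replicates and both parts come from the same libraries. Bodies were more methylated where the promoter was, with a control mean of 27.9% ± 0.118 behind promoters under 5%, 28.8% ± 0.821 behind those at 5 to 20%, 32.3% ± 1.21 at 20 to 40% and 35.8% ± 0.858 above 40% (mean and SD, n = 2).

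The position of a promoter relative to islands went with its level. Promoters overlapping a shore, the flank next to an island, were the least methylated: 411 of 782 were measured, at 11.4% ± 0.315 in control cells and 9.999% ± 0.250 in netrin-1 cells (mean and SD, n = 2). Promoters overlapping a shelf, the outer flank, but no shore had 16.3% ± 0.205 and 14.5% ± 0.455 (158 of 371 measured). The 2474 measured of 9436 that overlapped neither stood at 18.0% ± 0.366 and 16.1% ± 0.850. Netrin-1 libraries differed from control by -1.44, -1.85 and -1.99 points, and in none of these classes did the groups overlap (exact permutation p = 0.333).

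Promoters with more covered CpG positions were less methylated. The 363 with fewer than 5 covered positions stood at 27.0% ± 1.12 in control cells, the 915 with 10 to 20 at 17.3% ± 0.145 and the 290 with 40 or more at 3.38% ± 0.164 (mean and SD, n = 2). Netrin-1 means in the same classes were 24.6%, 15.2% and 2.71%, with groups apart in every class. The difference shrank in points from -2.44 to -0.677 and grew relative to the control level from -9.04% to -20.02%. Covered positions reflect both the CpGs of a window and the fragments that RRBS keeps, and these cannot be told apart here.

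**Figure D3:**
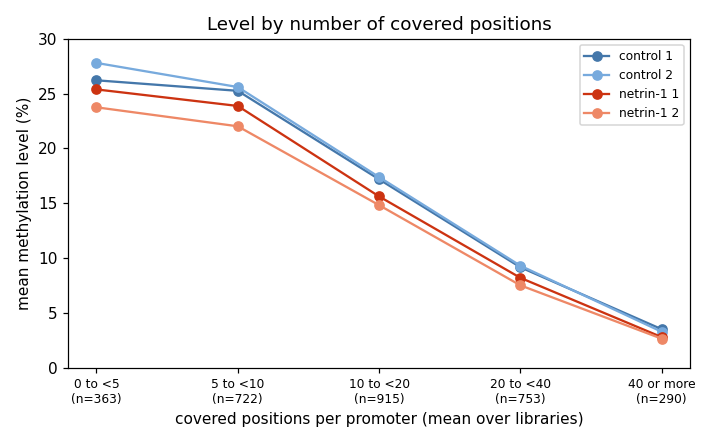
Mean methylation level in percent (vertical axis) of island-free promoters by the number of covered positions per promoter (horizontal axis, with the number of promoters), with a line per library. Both netrin-1 lines lie below both control lines in all 5 classes.

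Across the genome the lower mean level recurred on each of the 20 chromosomes with at least 20 measured promoters. The groups were apart on 19 of them, and overlapped on chromosome 19, where the difference was -0.945 points. The largest difference was on the X chromosome, where 151 promoters stood at 15.2% and 14.97% in control and 12.3% and 11.1% in netrin-1 libraries, or -3.42 points. The 2887 autosomal promoters differed by -1.83 points, and the distance between X and autosomes differed by -1.59 points with groups that did not overlap (exact permutation p = 0.333). Bodies of the same class of genes showed a like excess on the X of -1.37 points, while promoters with an island showed -0.114 points with overlapping groups (exact permutation p = 0.667). The calls of measured promoters, scaled to the calls of all measured gene features, had their lowest ratios of netrin-1 to control on chromosomes 15 and 13 among these 20, at 0.695 and 0.907, and their highest on 3 and 6, at 1.08 each. On the Y, with 5 measured promoters, the ratio was 0.515. The mean difference without these 4 chromosomes was -1.89 points, against -1.91 points with them.

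Single promoters were tested with a moderated quasi-binomial model of methylated and total calls, adjusted over all 17209 gene features that could be tested. Enough information for this test was present in 816 of the 3043 promoters. None of the 816 was called at an adjusted p under 0.05, beside 0.00581% of all features tested. An unadjusted p under 0.05 was found for 131, of which 124 were lower and 7 higher in netrin-1 cells, beside 11.9% of all features tested that were lower and 0.889% that were higher. The share was 16.1% in either direction, against 12.8% over all features. Further fits with limma, on percent levels and on M values, also called 0 of the 816, and gave 176 and 177 of them an unadjusted p under 0.05, or 21.6% and 21.7% beside 10.1% of all features in both fits. With each library centred on its mean logit the split was 66 lower (8.09%) and 26 higher (3.19%), where 4.37% of all features were lower and 4.58% higher. Other settings moved the count of calls. It was 7 of 850 without control replicate 1 (0.824%, beside 0.279% of all features), 20 of 844 without netrin-1 replicate 1 (2.37%, beside 2.55%) and 1 of 2983 with neither an information minimum nor the robust step (0.0335%, beside 0.0317%). Without moderation it was 0, with 41 promoters at an unadjusted p under 0.05, or 5.02% beside 5.14%.

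The promoter with the smallest p belonged to Dlg2, which encodes a scaffold protein of synapses (chromosome 7, 91090206 to 91091206). It stood at 35.1% and 38.3% in control and 13.8% and 13.4% in netrin-1 libraries, on 298 to 575 calls. The replicates of each group lay close together, with a difference of -23.1 points and an adjusted limma-moderated p of 0.0817, which ran from 0.000632 to 0.751 over the alternatives. Slc25a48, a mitochondrial carrier gene whose sequence is printed above (promoter on chromosome 13, 56437855 to 56438855), was at 18.8% and 18.7% in control and 5.98% and 5.72% in netrin-1 libraries, at an adjusted limma-moderated p of 0.105. Rufy3, a gene of neuronal polarity with only 2 CpGs in its printed window (promoter on chromosome 5, 88583074 to 88584074), was at 33.5% and 33.3% in control and at 19.8% in both netrin-1 libraries. In both promoters the groups were many times farther apart than their replicates, yet neither passed the adjustment, Rufy3 at an adjusted limma-moderated p of 0.143. Chad, which encodes the cartilage protein chondroadherin, was at 9.85% and 16.2% against 3.38% and 2.98%, and B230104I21Rik at 20.3% and 33.8% against 8.45% and 8.06%. Dlg2, Slc25a48, Chad, Rufy3 and C130026L21Rik were called when no minimum of information was set, where 0.216% of all features were. C130026L21Rik, named after its values were seen, was at 20.8% ± 0.933 and 11.3% ± 0.463 (mean and SD, n = 2).

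Other large differences toward lower levels lay in genes of varied kinds. Gm4862 was at 49.2% and 53.3% in control and 29.9% and 25.3% in netrin-1 libraries, the largest difference among tested promoters with separate groups, at -23.7 points. Mrap, which encodes an accessory protein of the ACTH receptor, was at 56.3% and 59.8% against 28.9% and 42.4%. Sphk1, a sphingosine kinase gene, was at 27.3% and 52.0% against 22.5% and 16.0%, so that most of its difference came from control replicate 2. Gnb3, a G protein subunit gene of cone photoreceptors, was at 53.7% and 45.8% against 32.2% and 28.5%. Gm1141, 4931417E11Rik, Psme2b and Igbp1b differed by -21.2, -21.8, -20.5 and -19.5 points, with separate groups in each. None of these passed the test. Psme2b and Igbp1b are close copies of other genes, and reads of such copies may be placed at either, so their values are uncertain.

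Fewer promoters were more methylated in netrin-1 cells. Rinl, a gene of the Ras interactor family, was at 37.9% and 36.9% in control and 63.5% and 55.7% in netrin-1 libraries, or 22.2 points higher, at an adjusted limma-moderated p of 0.206. Apob, which encodes the main protein of liver-derived lipoproteins (promoter on chromosome 12, 7977148 to 7978148), was at 30% and 37.01% against 54.6% and 53.6%. The netrin-1 libraries lay close together there and above both controls. Cyyr1, Myo3b, an unconventional myosin gene, and 2300005B03Rik were higher by 21.1, 19.2 and 17.7 points. The last of these is on chromosome 15, where scaled calls were at a ratio of 0.695, and the part of that in its difference was not tested.

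**Figure D4:**
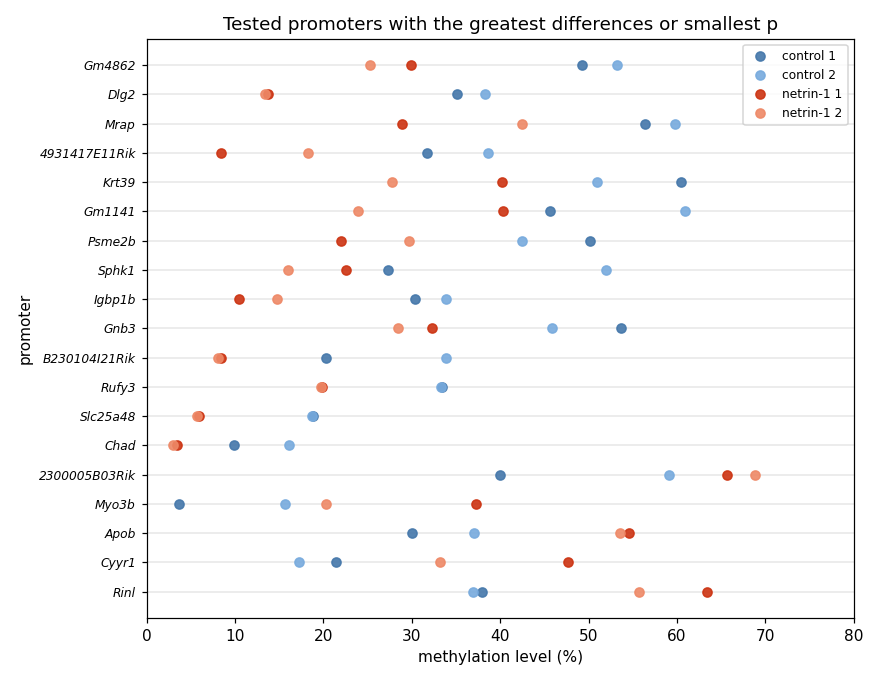
Methylation level in percent (horizontal axis) of the 19 tested island-free promoters with the largest non-overlapping differences in either direction or the smallest p (vertical axis), with a point per library. The lower 5 rows have higher levels in netrin-1 libraries and the upper 14 have lower ones; Dlg2, Rufy3 and Slc25a48 show the tightest replicates among the 14.

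Promoters partly methylated in 1 group and nearly unmethylated in the other were rare. In 6 promoters (0.197%, beside 0.0401% of all measured gene features) both controls were at 20% or more and both netrin-1 libraries under 10%, and 1 promoter (0.0329%, beside 0.00859%) showed the opposite. These were named after their values were seen. Beside B230104I21Rik, the 6 were Fam162b at 20.4% and 37.5% in control against 2.78% and 3.23%, Gpx4, which encodes a glutathione peroxidase that removes lipid peroxides, at 25% and 26.7% against 0% and 4.08%, and Spo11, the enzyme gene of meiotic DNA breaks, at 25% and 20% against 0% and 8.70%. The last of the 6 were Xlr4b at 20.4% and 25.3% against 8.82% and 6.98% and Xlr4c at 29.8% and 39.1% against 8.05% and 9.68%, which are near-identical X-linked copies and so uncertain. Lgals3, which encodes galectin-3, went the other way, at 0% and 5.88% in control and 42.4% and 27.8% in netrin-1 libraries. Gpx4, Spo11 and Lgals3 had as few as 12, 15 and 11 calls in a library, and apart from B230104I21Rik none of the 7 held enough information to be tested.

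Island-free promoters of pluripotency genes were mostly unmethylated in both groups. Of 23 such promoters on the list 12 were measured, and 8 of these had a mean level under 5%. Pou5f1, which encodes the stem cell factor Oct4, was at 1.08% and 0% in control and 0% and 1.39% in netrin-1 libraries, on 66 to 216 calls. Zfp42 (Rex1), a marker of undifferentiated stem cells, was at 0.628% and 2.36% against 1.21% and 1.49%. Both of these defining markers of the labelled cell type were low in all 4 libraries, while the promoters of Nanog and Dppa5a had no call. Tdgf1, a Nodal co-receptor gene, was at 0% of 152 control calls, which allows up to 1.97%, and at 0% and 2.44% in netrin-1 libraries. Dppa2, with no methylated call in any library, allows up to 2.75% in control cells and 1.83% in netrin-1 cells.

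Dppa3 (Stella), a gene of naive stem cells and germ cells, had a partly methylated promoter. It was at 25.5% and 30.1% in control and 22.9% and 17.5% in netrin-1 libraries, and its adjusted limma-moderated p was 0.447. Dppa4 was at 3.03% and 1.89% against 0.713% and 0.689% on 1263 to 1887 calls, with groups apart and too little information to be tested. Zscan10 was at 18.2% and 0% in control and at 0% of 48 netrin-1 calls, which allows up to 6.25%. Esrrb, a nuclear receptor gene of stem cells named after its values were seen, was at 51.7% and 9.43% in control and 49.4% and 14.8% in netrin-1 libraries, so its replicates differed far more than the groups did. Over the list 6 promoters were lower, 5 higher and 1 equal, and the median of their differences was -0.07 points, beside 62.1% lower and a median of -0.73 points over all measured island-free promoters. Island-free promoters under 5%, the class of 8 of these 12, had a median difference of -0.176 points, with 57.3% lower.

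Promoters of sperm genes were at intermediate levels on average, though 2 of the 12 measured had a mean level under 5%. Their 12 measured promoters, of 42, had means of 24.5% and 29.8% in control and 22.4% and 21.2% in netrin-1 libraries. Of these 9 were lower and 3 higher, and the median of their differences was -6.16 points. In 6 of the 12, or 50%, the groups did not overlap on the lower side, beside 27.9% of all gene features and 26.4% of measured island-free promoters. The mean of this list falls in the class at 20 to 40%. In that class 30.9% of island-free promoters had groups apart on the lower side, and the median difference was -3.88 points. Tnp1, which encodes a transition protein that replaces histones in sperm (promoter on chromosome 1, 73015409 to 73016409), was at 32.0% and 44.98% in control and 25.7% and 22.8% in netrin-1 libraries. Tuba3b, a testis tubulin gene with close copies, was at 22.2% and 24.8% against 9.06% and 12.3%, and Tex101, a sperm maturation gene, at 33.6% and 32.5% against 27.8% and 23.5%. All of these had groups apart, and none passed the test, with adjusted limma-moderated p-values of 0.187, 0.180 and 0.339. Adam2, a sperm surface gene, was at 22.0% ± 1.33 and 23.4% ± 0.781 (mean and SD, n = 2) with overlapping groups. Catsper3, a sperm calcium channel gene, was at 63.9% ± 0.836 and 50.1% ± 10.3 on 30 to 54 calls.

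Few promoters of oocyte and trophoblast genes were measured. Of 29 oocyte promoters 6 were, with 3 lower and 3 higher, among them Npm2, an egg chromatin protein gene, at 40.7% ± 5.29 and 32.2% ± 5.85, Nlrp4c at 36.5% ± 10.6 and 37.2% ± 7.02 and Nlrp5 at 10.3% ± 4.69 and 11.3% ± 1.80. Zp2, an egg coat gene, ranged from 3.85% to 47.5% between the control libraries. Of 23 trophoblast promoters 3 were measured, with 1 lower and 2 higher. Hand1, a transcription factor gene of trophoblast and heart, was at 5.62% ± 0.884 and 5.93% ± 2.22, Syna, a syncytin gene, at 17.1% ± 13.5 and 19.0% ± 6.61, and Psg17 at 44.9% ± 33.2 and 19.7% ± 10.2 (mean and SD, n = 2). Elf5, a trophoblast factor gene whose promoter is known to be methylated in embryonic stem cells, had no call.

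Promoters of genes of liver were more methylated than the mean of island-free promoters in control cells. The same held for the control mean of every other list here except that of pluripotency genes. In control replicate 1 alone, the oocyte and trophoblast lists, of 6 and 3 promoters, were lower. They stood there at 15.6% and 11.3%, beside 16.9% for all measured island-free promoters. Of 75 promoters of liver-secreted plasma proteins 15 were measured, at 34.3% and 30.4% in control and 34.2% and 25.6% in netrin-1 libraries, so the groups overlapped. Among them 11 were lower and 4 higher, and the median of their differences was -2.89 points. Serping1, which encodes the C1 inhibitor, was at 18.9% and 11.1% against 5.47% and 6.94%, at an adjusted limma-moderated p of 0.263. Lcat, which esterifies cholesterol in plasma, was at 43.0% ± 0.620 and 40.1% ± 0.0685, Itih1 at 52.1% ± 1.69 and 36.1% ± 12.4, and Apoe, a lipoprotein gene, at 1.60% ± 0.578 and 0.985% ± 0.297 (mean and SD, n = 2). Apob, above, was among the 4 that were higher.

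Cytochrome P450 genes of families 1 to 4 encode enzymes that oxidise drugs and lipids. Of 77 promoters 11 were measured, with 8 lower, 3 higher and a median difference of -2.53 points. Cyp1a1 was at 12.9% and 6.46% in control and 6.16% and 6.41% in netrin-1 libraries, so that control replicate 1 stood apart from the other libraries. Cyp2c44 was at 41.1% ± 2.28 and 43.4% ± 0.455, Cyp2j6 at 7.06% ± 0.735 and 5.42% ± 0.734, Cyp4f40 at 47.6% ± 9.46 and 41.0% ± 5.78, and Cyp4f14 at 31.1% ± 5.92 and 13.1% ± 2.82 on 26 to 53 calls (mean and SD, n = 2).

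Keratin and epidermal barrier genes had 40 of 163 promoters measured, 24 lower and 15 higher, and the median of their differences was -1.52 points. The groups were apart on the lower side in 11 (27.5%) and on the higher side in 5 (12.5%), beside 27.9% and 10.2% of all gene features. Krt39, a hair keratin gene, was at 60.5% and 50.9% in control and 40.2% and 27.8% in netrin-1 libraries, at an adjusted limma-moderated p of 0.184. Krt35 and Krt79 had overlapping groups, where Krt35 was at 53.7% ± 2.23 and 54.6% ± 2.99 and Krt79 at 33.5% ± 7.12 and 35.8% ± 6.69. Alox12b, a lipoxygenase gene of the skin barrier, was at 12.3% ± 4.17 and 7.88% ± 2.16, and Krt24 at 50.9% ± 6.04 and 28.5% ± 26.2 on 15 to 96 calls (mean and SD, n = 2).

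Blood cell genes had 30 of 110 promoters measured, at 29.3% and 32.0% in control and 27.5% and 27.3% in netrin-1 libraries. Of these 20 were lower and 10 higher, and the median of their differences was -1.80 points. Rac2, a GTPase gene of blood cells, was at 57.1% and 41.0% against 6.52% and 11.9%, and Itgb2, an integrin gene of leukocytes, at 83.3% and 62.9% against 33.3% and 33.9%. Neither held enough information for the test, on 42 to 83 and 30 to 62 calls, and Rac2 lies on chromosome 15. The 3 blood promoters with the most calls differed less, with Cd8b1, a T cell co-receptor gene, at 43.5% ± 0.689 and 43.4% ± 0.896, Itgad at 11.04% ± 0.826 and 9.07% ± 4.09 and Csf2rb, a cytokine receptor gene also on chromosome 15, at 50.9% ± 0.600 and 43.1% ± 7.57 (mean and SD, n = 2). Red cell genes had 4 of 23 measured, with 2 lower and 2 higher. Their groups overlapped in Epor, the erythropoietin receptor gene, at 28.0% ± 10.1 and 19.7% ± 6.21, Ermap at 56.4% ± 7.77 and 50.1% ± 5.99, Rhd at 23.4% ± 8.22 and 26.5% ± 7.08, and Gata1, an erythroid factor gene, at 13.6% ± 14.1 and 22.4% ± 18.3.

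Striated muscle genes were the list of more than 30 promoters with the greatest share measured, 32 of 72. Of these 20 were lower and 12 higher, and the median of their differences was -2.46 points. Actn2, which encodes an actinin of the muscle Z-disc, had 1430 to 2351 calls and stood at 2.73% and 2.48% in control and 1.55% and 0.213% in netrin-1 libraries. Its groups were apart, at an adjusted limma-moderated p of 0.358. Musk, a kinase gene of the nerve-muscle synapse, was at 53.9% and 50% against 36.1% and 34.8%, at an adjusted limma-moderated p of 0.340. Neb, the nebulin gene, was at 43.0% ± 1.81 and 39.7% ± 0.495, Acta1, skeletal actin, at 25.8% ± 4.90 and 21.9% ± 1.56, and Nppa, a heart hormone gene, at 39.6% ± 22.5 and 22.1% ± 11.1 on 10 to 38 calls (mean and SD, n = 2).

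Genes of pancreas, gut and hormones had 19 of 71 promoters measured, 12 lower and 7 higher, and the median of their differences was -0.79 points. Cpb1, a pancreatic carboxypeptidase gene, was at 41.7% and 45.7% in control and 30.1% and 32.7% in netrin-1 libraries, at an adjusted limma-moderated p of 0.292. Tff1, a stomach trefoil factor gene, was at 36.7% and 45.9% against 71.9% and 61.2%, higher in both netrin-1 libraries on 32 to 103 calls. Gkn1, a stomach gene, was at 44.7% ± 1.32 and 43.9% ± 1.11, Pomc, the hormone precursor gene of the pituitary, at 6.97% ± 1.70 and 7.72% ± 4.8005, and Cel, a pancreatic lipase gene, at 37.4% ± 21.1 and 20.3% ± 0.363 (mean and SD, n = 2).

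Receptor genes for smell, pheromones and taste made up 1477 of the 10589 promoters and were seldom covered, with 45 measured (3.05%). Those 45 stood at 30.4% and 33.3% in control and 26.5% and 27.5% in netrin-1 libraries. Of them 34 were lower, 10 higher and 1 equal, and the median difference was -3.81 points, beside 62.1% lower and -0.73 points over all measured island-free promoters. Island-free promoters at 20 to 40%, the class in which the mean of this list falls, had a median difference of -3.88 points, with 64.6% lower. Olfr368 was at 47.4% and 42.8% against 31.3% and 32.6%, at an adjusted limma-moderated p of 0.248. Vmn1r8, a vomeronasal receptor gene, was at 41.8% ± 1.62 and 34.0% ± 8.33, Taar4, a trace amine receptor gene, at 72.9% ± 1.23 and 69.1% ± 7.21, Olfr1420 at 39.96% ± 13.5 and 21.6% ± 6.97, and Olfr215 at 44.6% ± 27.8 and 20.3% ± 5.19 (mean and SD, n = 2). Close copies are common in these families, so reads may be shared among members.

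In lens and photoreceptor genes the median and the mean differed in sign, as they did in the 3 trophoblast promoters (0.30 and -7.67 points). Of 58 promoters 21 were measured, 10 lower and 11 higher, where the median of the differences was 0.15 points and their mean -2.86 points. The lower promoters differed by more, as in Gnb3 above, Prph2, a disc structure gene, at 30.2% and 27.2% in control and 21.5% and 20.7% in netrin-1 libraries, and Impg1, a retinal matrix gene, at 91.7% and 77.8% against 45.8% and 64.6% on 24 to 96 calls. Gnat2, the cone transducin gene, was at 33.8% ± 0.873 and 36.7% ± 4.62 and Abca4, a retinoid transporter gene, at 26.2% ± 5.92 and 30.2% ± 0.733 (mean and SD, n = 2), both with overlapping groups. Defensin and antimicrobial genes had 4 of 64 measured, 2 lower and 2 higher, with Lpo, a peroxidase gene, at 41.4% ± 2.59 and 32.6% ± 2.87, Defb20 at 38.3% ± 0.460 and 44.7% ± 0.432, Defb50 at 40.1% ± 4.09 and 47.2% ± 7.49 and Defb36 at 20.4% ± 17.1 and 10% ± 14.1.

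**Figure D5:**
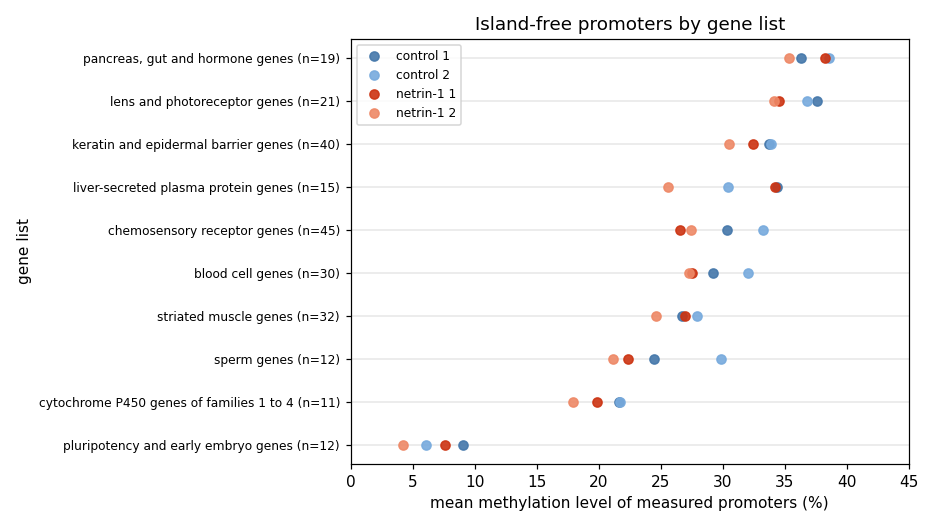
Mean methylation level in percent (horizontal axis) of the measured island-free promoters of each gene list with at least 10 of them (vertical axis, n is the number of promoters), with a point per library. Pluripotency genes are lowest and genes of pancreas, gut and hormones highest; the netrin-1 points lie below both control points in the lists of lens, keratin, chemosensory, blood, sperm and P450 genes.

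The promoter of Dcc, which encodes a netrin-1 receptor, is also free of an island and was named after its values were seen. It was at 5.23% and 16.2% in control and 3.97% and 2.59% in netrin-1 libraries on 363 to 811 calls, at an adjusted limma-moderated p of 0.213 that ran from 0.0333 to 0.751 over the alternatives.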

How the data were processed

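RRBS libraries of CGR8 cells, 2 control and 2 netrin-1, were prepared with MspI and sequenced as pairs of 75 bp reads, per the labels' protocols. FastQC and the build GRCm38 (mm10) appear in the submitters' processing notes. Not given in the sources used here were the aligner, the caller, filters and the conversion rate. Per the file headers, the authors deposited for each gene feature and library the count of total calls, the count of methylated calls, the number of covered positions and the level as a fraction. Dividing methylated by total calls returned the deposited fraction within 5.55e-16. All gene features together held 31452170 and 41964981 calls in control and 36269454 and 53293458 in netrin-1 libraries.

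Levels were recomputed as percents for features with at least 10 calls in every library, and group means are unweighted means over features, with SD over libraries, set against each other in an exact two-sided permutation test (Python 3.11.15, numpy 2.4.6, pandas 2.3.3, scipy 1.17.1). Single features were tested on counts by a quasi-binomial logistic model over all features of the gene file. Its dispersion was moderated with limma 3.58.1 in R 4.3.3 (data.table version 1.17.8), with a trend on coverage, a robust fit and a floor of 1, and p-values were adjusted by Benjamini-Hochberg. Tested features had levels that were not identical and an information of total calls × level × (1 - level) averaging at least 25 per library, with the level as a proportion. This minimum was taken over from an earlier analysis that set it after counts had been seen. The quasi-binomial fit was checked on simulated data. These were drawn with the same dispersion for all features, so the check does not cover spread that varies between features.

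The promoters, the gene lists and the tests were chosen with earlier results of these data known. Named genes are all promoters called, the 10 tested promoters with the greatest lower and the 5 with the greatest higher difference among those with groups apart, the 5 with the smallest p, in each list the 3 with the most calls and the 2 with the greatest difference, and Pou5f1, Nanog, Dppa3, Zfp42, Tdgf1 and Elf5. Others are said to be named after their values were seen. Alternatives covered the minimum of calls and of positions, weighting, the median, moderation, centring, chromosomes, overlapping windows, a replicate block and each library left out.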

Additional observations from a re-analysis of the deposited data

How the results depend on the processing

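The mean difference of island-free promoters kept its sign in all alternatives, from -2.43 to -1.38 points, as did the gap to promoters with an island (-2.23 to -1.23), the share at or above 50% (-2.48 to -1.07) and the bodies (-3.08 to -1.64). The class at 80 to 100%, with 11 promoters, ran from -5.53 to 0.451 points when single libraries were left out. That at 20 to 40% ran from -4.61 to -2.45 and that at 40 to 60% from -4.56 to -1.76. The count of promoters called, 0, was 5 with no information minimum and 1 when, in addition, the robust step was dropped. The count stayed at 0 without moderation, with limma on percents or M values, with centring and at 30 calls or more, where 41, 176, 177, 92 and 131 had an unadjusted p under 0.05. These were 5.02%, 21.6%, 21.7%, 11.3% and 16.1% of the promoters tested, beside 5.14%, 10.1%, 10.1%, 8.95% and 12.8% of all features tested. With single libraries left out it ran from 0 to 20, with 7 called in the absence of control replicate 1 and 20 in that of netrin-1 replicate 1. The replicate numbers are shared between groups, but nothing in the labels says that they pair the libraries, and deviations of same-numbered libraries over 816 tested promoters correlated at 0.00831. The replicate block raised the count to 17, all lower (2.08% of promoters tested, beside 1.74% of all features), and left the mean difference at -1.91 points, the gap at -1.73, the share at -1.74, the bodies at -2.39 and the distance from promoter to body at 0.572 points. Of 98 promoters named, 22 changed sign when a single library was left out. Centring gave log2 odds of 0.20 for Cd8b1, 0.15 for Gkn1, 0.036 for Lcat and 0.0011 for Neb. With single libraries left out the differences ran from -0.216 to 8.15 points for Abca4, -0.662 to 0.605 for Cd8b1, -13.3 to 0.0610 for Cyp4f40, -1.73 to 0.144 for Gkn1, -0.319 to 6.21 for Gnat2, -4.86 to 0.920 for Itgad, -1.23 to 2.99 for Krt35, -2.81 to 7.26 for Krt79, -6.77 to 8.27 for Nlrp4c, -2.75 to 8.87 for Rhd and -8.90 to 1.29 for Taar4. The widest ranges that crossed 0 were those of Zp2 (-33.4 to 10.2), Esrrb (-19.6 to 22.7), Gata1 (-4.12 to 21.7) and Defb36 (-22.5 to 1.67). The cause of these changes was not tested beyond the fewer libraries. The information minimum, which rests on calls and level, left 2227 of 3043 measured promoters untested, and 7065 had no call.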
